A study of Homo sapiens with 6 samples.

Results

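The results concern 8 genes that encode enzymes of asparagine, proline, cysteine, alanine, aspartate and glutamine synthesis: ASNS, PYCR1, ALDH18A1, CTH, CBS, GPT2, GOT1 and GLUL. They were taken by gene name from the 58735 genes of the deposited count table, and all 8 were found there once. The genes were chosen by their siFUBP1 and siMock counts together with their role, so the differences between the groups below are a description and carry no p-value. RNA was sequenced from MG63, an established human osteosarcoma cell line, 48 h after the cells had received an siRNA that targets FUBP1 (siFUBP1, 3 samples) or a negative control siRNA (siMock, 3 samples). FUBP1 encodes a protein that binds single-stranded DNA and RNA and is known as a regulator of MYC transcription. No group received another agent, and which of the FUBP1 siRNAs of the study was sequenced is not stated.

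Cells make these amino acids from intermediates of glucose and glutamine breakdown. Asparagine synthetase (ASNS) moves an amide group from glutamine to aspartate. Proline is made from glutamate in steps catalysed by the synthase ALDH18A1 and the reductases of the PYCR family, and cysteine is made from homocysteine by CBS and then CTH. GPT2 and GOT1 are transaminases that exchange an amino group between glutamate and alanine or aspartate, and GLUL (glutamine synthetase) adds ammonia to glutamate. Several of these genes are textbook targets of ATF4, a transcription factor whose translation increases when amino acids are short.

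The promoter of ASNS is the classical example of an amino acid response element, and it is shown here because ASNS had the largest fold change of the 8 genes. RefSeq promoter windows (GRCh38.p14), which run from 250 bases before the start site to 50 bases after it, were found for 6 of the 8 genes, as 10 windows. PYCR1 and GPT2 were not matched. The capitals in the first window mark TGATGNAA, the composite C/EBP-ATF motif, and GTTACA, the second element known from this promoter; those in the second window mark TGATGNAA read on the other strand. Both windows are printed along the minus strand of the chromosome, which is the strand of the gene.
ASNS, chr7:97872359-97872658: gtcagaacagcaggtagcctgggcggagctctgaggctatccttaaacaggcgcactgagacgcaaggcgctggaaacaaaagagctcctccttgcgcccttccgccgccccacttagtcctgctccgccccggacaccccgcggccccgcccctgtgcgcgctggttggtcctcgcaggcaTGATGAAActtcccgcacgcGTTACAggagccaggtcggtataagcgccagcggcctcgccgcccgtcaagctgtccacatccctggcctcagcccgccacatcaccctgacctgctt
GOT1, chr10:99430575-99430874: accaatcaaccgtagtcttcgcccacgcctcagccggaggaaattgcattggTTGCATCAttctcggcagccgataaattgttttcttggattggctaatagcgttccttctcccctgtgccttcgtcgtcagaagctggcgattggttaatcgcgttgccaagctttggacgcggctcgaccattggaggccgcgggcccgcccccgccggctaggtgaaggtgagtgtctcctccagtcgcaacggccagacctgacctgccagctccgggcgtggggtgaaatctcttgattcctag
The ASNS window shown held TGATGAAA at position -68 from the start (chromosome 7, 97872469 to 97872476) and GTTACA at position -48 (97872451 to 97872456). The GOT1 window held TTGCATCA, a match on the other strand, at position -198 (chromosome 10, 99430815 to 99430822). TGATGNAA stood in 3.62% of all 35116 windows of the table on either strand, and GTTACA in 6.66%. The other motifs searched, on either strand, were the palindromes TGACGTCA (1.85% of windows) and CACGTG (7.26%), neither of which overlaps the others. TGACGTCA was found in no window of the 8 genes, and CACGTG in the window of ALDH18A1 at position -136. The windows of CTH, GLUL and CBS, and the other window of ASNS, which is not shown, held none of the 4 motifs. These are matches of letters and do not show that a factor binds there.

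Total counts lay between 16309900 and 17484313 reads per sample, and 16116 genes passed a filter on low counts. FUBP1 itself was counted at 3872, 4331 and 4282 reads in the siMock samples and at 749, 752 and 926 in the siFUBP1 samples. Its level, 255 ± 18.5 CPM (read counts scaled to library size, SD, n = 3) in control cells, came to 46.9 ± 5.33 CPM (SD, n = 3) after knockdown, which is 18.4% of it. The log2 fold change was -2.44 (SE 0.0895, adjusted p = 1.90e-17 by edgeR). The label of the line was checked against 8 genes of the osteoblast lineage. Several defining markers were at or near 0: over all 6 samples COL1A2 had 0 reads, ALPL 2, SP7 7 and SPARC 12. A count of 0 allows up to 0.192 CPM in the sample where a read weighs most. COL1A1 was present at 113 CPM in siMock and 45.5 CPM in siFUBP1, RUNX2 at 0.448 and 4.05 CPM, and the 8 genes together reached 109 to 119 CPM per siMock sample and 48.9 to 54.7 CPM per siFUBP1 sample. The 9 markers of epithelial, blood, endothelial and muscle cells summed to 7.90 to 10.8 CPM in each sample. Of these, the epithelial EPCAM stood at 4.04 and 4.61 CPM in siMock and siFUBP1, and the muscle gene DES at 3.52 and 2.96 CPM. KRT5 and MYOD1 had 0 reads. The cells are called MG63 after their label, although these markers do not bear out an osteoblast lineage, and the part of this in the results was not tested.

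Of the 8 genes, ASNS, PYCR1, CBS and GPT2 were higher in siFUBP1 past the fold threshold, ALDH18A1 and GOT1 were higher by less, and CTH and GLUL were lower. At an adjusted p under 0.05 and an absolute log2 fold change over 1, 4 of the 8 were called higher and 0 lower, beside 8.16% of all genes tested called higher, 9.13% called lower and 17.3% called in either direction. By the adjusted p alone, 6 were higher and 2 lower, where 30.1% of all genes tested were higher and 30.1% lower. The samples of the groups did not overlap for any of the 8, which was so for 63.9% of all genes tested. The median log2 fold change was 1.33 over the 8 and 0.00197 over all genes tested. Since the 8 genes were proposed for these differences, nothing is read from the counts. ASNS passed the filter on low counts only through the siFUBP1 samples, and the other 7 would have passed on siMock alone.

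**Figure D1:**
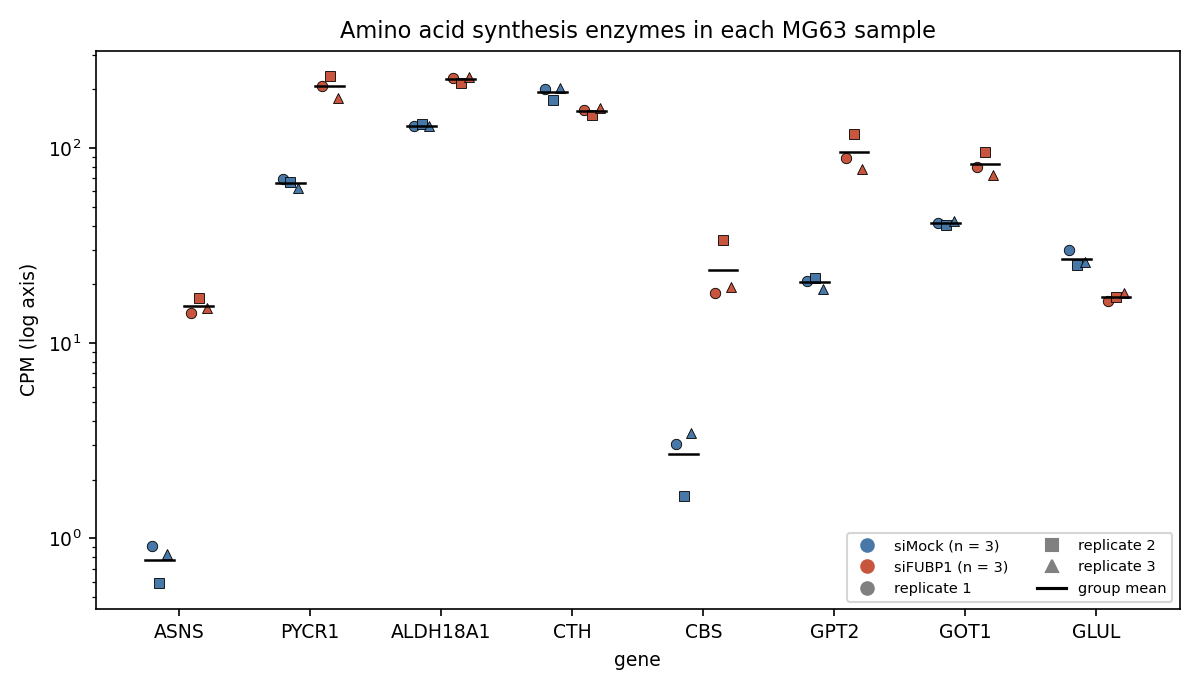
Level of each of the 8 enzymes in every sample, in CPM on a log axis, with siMock in blue, siFUBP1 in red, a marker shape for each replicate number and a black line at the group mean (n = 3). ASNS went from 0.780 to 15.5 CPM and CBS from 2.72 to 23.7 CPM on average, while CTH and GLUL lay lower in every siFUBP1 sample than in any siMock sample.

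ASNS (ENSG00000070669, chromosome 7, 97852118 to 97872542, minus strand, GRCh38), which makes asparagine, was almost uncounted in the control cells. It had 15, 10 and 13 reads in the siMock samples and 241, 295 and 266 in the siFUBP1 samples. The mean level went from 0.780 ± 0.171 CPM to 15.5 ± 1.39 CPM (SD, n = 3 each), a log2 fold change of 4.31 (SE 0.204), or 19.9-fold. Every siFUBP1 sample was far above every siMock sample. Because the siMock level rests on a few reads, the size of the change depends on the scale: on log2(FPKM + 1), where FPKM are fragments scaled to gene length and library size, it was 1.92, and the fits on counts gave 4.10 to 4.44. The counts and the level per length are uncertain, because the read-through gene AC079781.5 on the same strand covers 1985 of the 2356 bases (84.3%) of the longest coding transcript of ASNS. This gene had 8 reads in the 6 samples together, and 79.4% of all 100-base windows of the ASNS transcript also occur in it. How reads that fall on both genes were counted is not stated. If they were left out, the counts, CPM and fold change of ASNS rest on the unshared part of the gene, and this was not tested.

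The pair of genes that make proline from glutamate was expressed at a high level in both groups. ALDH18A1 (ENSG00000059573, chromosome 10, 95605929 to 95656706, minus strand), which makes the semialdehyde precursor of proline and ornithine, had 2108, 2257 and 2013 reads in siMock and 3864, 3716 and 4049 in siFUBP1. Its level was 130 ± 2.18 CPM and 225 ± 9.43 CPM (SD, n = 3 each), a log2 fold change of 0.79 (SE 0.0745). The spread within groups was narrow, with coefficients of variation of 1.67% in siMock and 4.19% in siFUBP1. PYCR1 (ENSG00000183010, chromosome 17, 81932384 to 81942412, minus strand), the mitochondrial reductase of the last step, had 1126, 1137 and 970 reads in siMock and 3518, 4046 and 3160 in siFUBP1. Its level was 66.0 ± 3.52 CPM and 208 ± 26.1 CPM (SD, n = 3 each), a log2 fold change of 1.65 (SE 0.0887), or 3.14-fold. PYCR1 had the larger fold change of the pair, and no sample of either gene overlapped the other group. PYCR1 shares 408 exonic bases with MYADML2 on the same strand, which had 64 reads in all.

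The cytosolic reductase PYCR3, a relative of PYCR1 that was not among the 8 genes, was tested. Its values were 15.1 and 18.0 CPM (log2 fold change 0.26, adjusted p = 0.0835 by edgeR).

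The genes of cysteine synthesis from homocysteine went in opposite directions. CBS (ENSG00000160200, chromosome 21, 43053191 to 43076943, minus strand), which joins homocysteine and serine to cystathionine, had 50, 28 and 54 reads in siMock and 304, 585 and 338 in siFUBP1. Its level was 2.72 ± 0.952 CPM and 23.7 ± 8.72 CPM (SD, n = 3 each), a log2 fold change of 3.13 (SE 0.368), or 8.70-fold. CBS was the most variable of the 8 genes, with coefficients of variation of 35.0% and 36.8%, against a median of 9.35% in siMock and 8.92% in siFUBP1 over all genes tested. Replicate 2 was the lowest siMock sample and by far the highest siFUBP1 sample.

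The annotation holds a near-identical copy, CBSL, in which 92.4% of all 100-base windows of the CBS transcript also occur, so that the reads of CBS and CBSL cannot be told apart with certainty. CBSL was counted at 5, 75 and 40 reads in the siMock samples and at 17, 35 and 31 in the siFUBP1 samples, and did not pass the test (log2 fold change -0.60, adjusted p = 0.571 by edgeR). The copy's share of the summed reads was 9.09% to 72.8% without the knockdown and 5.30% to 8.40% with it. The sums were 55, 103 and 94 reads in siMock and 321, 620 and 369 in siFUBP1, and they do not overlap either. Counted together, the pair went from 5.15 ± 1.54 CPM to 25.3 ± 9.11 CPM (SD, n = 3 each), a log2 fold change of 2.30 (SE 0.347), or 4.91-fold in place of 8.70-fold. How reads that fit both copies were counted is not stated, so the sum may also lack some of them.

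**Figure D2:**
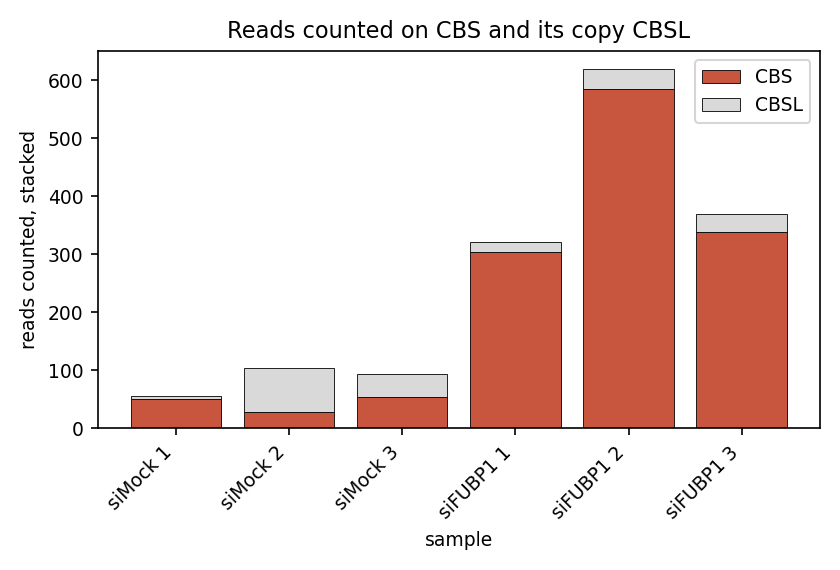
Reads counted on CBS (red) and on its copy CBSL (grey), stacked, in each of the 6 samples. The stacks reach 55 to 103 reads in siMock and 321 to 620 reads in siFUBP1, and the grey share is largest in siMock replicate 2, at 72.8%.

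CTH (ENSG00000116761, chromosome 1, 70411218 to 70439851, plus strand), which splits cystathionine to cysteine, was lower in siFUBP1. It had 3271, 3002 and 3148 reads in siMock and 2628, 2552 and 2810 in siFUBP1. The level was 193 ± 14.1 CPM and 155 ± 6.97 CPM (SD, n = 3 each), a log2 fold change of -0.32 (SE 0.0780), which left 80.1% of the siMock level. The difference is the smallest of the 8 in size, but the groups are apart, with 177 CPM in the lowest siMock sample and 161 CPM in the highest siFUBP1 sample. When trends with GC content and length were removed, the log2 fold change was -0.60.

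Both transaminases were higher in siFUBP1. GPT2 (ENSG00000166123, chromosome 16, 46884378 to 46931297, plus strand), the mitochondrial alanine transaminase, had 340, 368 and 296 reads in siMock and 1507, 2045 and 1359 in siFUBP1. Its level was 20.5 ± 1.38 CPM and 95.0 ± 20.6 CPM (SD, n = 3 each), a log2 fold change of 2.21 (SE 0.130), or 4.64-fold. The lowest siFUBP1 sample, at 77.8 CPM, was well above the highest siMock sample, at 21.7 CPM. GOT1 (ENSG00000120053, chromosome 10, 99396870 to 99431569, minus strand), the cytosolic aspartate transaminase, had 675, 687 and 660 reads in siMock and 1349, 1650 and 1271 in siFUBP1. Its level was 41.4 ± 0.921 CPM and 82.6 ± 11.4 CPM (SD, n = 3 each), a log2 fold change of 0.998 (SE 0.0931). This is just under the threshold of 1, whereas PYCR1, at 1.65, is the nearest of the 8 above it. In 6 of the 14 other settings GOT1 was past the threshold, among them those without siMock replicate 3 (1.01), without siFUBP1 replicate 1 (1.03) and without siFUBP1 replicate 3 (1.08). GOT1 shares 651 exonic bases with AL391684.1 on the opposite strand, which had 568 reads in the 6 samples, and whether the counting used the strand is not stated.

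The relatives of the transaminases, which were tested, fell. GPT, the cytosolic alanine transaminase, went from 9.17 to 3.06 CPM (log2 fold change -1.58, adjusted p = 5.35e-08 by edgeR). It shares 207 exonic bases with AC084125.2 on the opposite strand, which had 206 reads. GOT2, the mitochondrial aspartate transaminase, went from 167 to 120 CPM (log2 fold change -0.48, adjusted p = 4.09e-06 by edgeR). On the FPKM scale, GPT2 made up 49.5% ± 4.66 of the sum with GPT in siMock and 93.0% ± 0.949 in siFUBP1 (SD, n = 3 each). GOT1 made up 21.6% ± 0.621 of the sum with GOT2 in siMock and 43.4% ± 4.24 in siFUBP1 (SD, n = 3 each). The summed FPKM of GOT1 and GOT2 was 56.1 ± 0.645 in siMock and 56.1 ± 2.61 in siFUBP1 (SD, n = 3 each), and its samples overlap between the groups. On the same scale, for GPT2 and GPT together it went from 6.48 ± 0.762 to 16.0 ± 3.36 FPKM (SD, n = 3 each). GOT1L1, a further relative, had 0 reads in every sample.

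**Figure D3:**
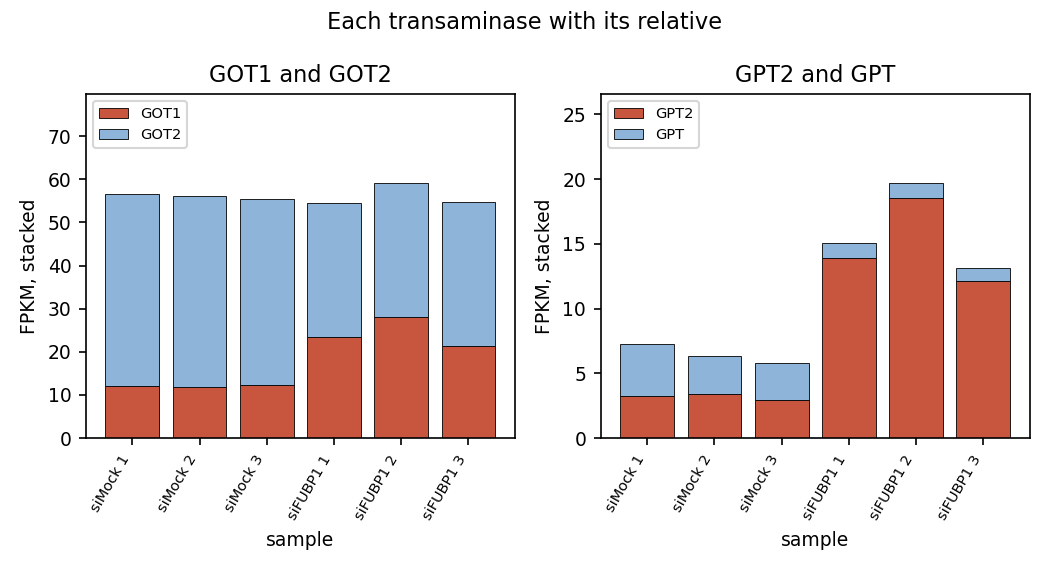
Stacked FPKM of each transaminase (red) and its relative (blue) in the 6 samples, with a panel each for the aspartate and the alanine transaminases. The GOT1 and GOT2 stacks keep a mean height of 56.1 FPKM in both groups while the GOT1 share goes from 21.6% to 43.4%, and the GPT2 and GPT stacks go from 6.48 to 16.0 FPKM on average.

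GLUL (ENSG00000135821, chromosome 1, 182381704 to 182392206, minus strand), which makes glutamine, was lower in siFUBP1. It had 490, 425 and 407 reads in siMock and 277, 300 and 314 in siFUBP1. The level was 27.0 ± 2.64 CPM and 17.2 ± 0.795 CPM (SD, n = 3 each), a log2 fold change of -0.65 (SE 0.106), which left 63.7% of the siMock level. All siFUBP1 samples were below all siMock samples. GLUL was also the only one of the 8 genes whose 3' UTR held a match to the seed (bases 2 to 8) of any of the 3 FUBP1 siRNA guides that the study lists. It held 1 match, to the guide named RNAi#3, which 18.3% of 18742 3' UTRs matched, and its part in the lower level was not tested.

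Compared per length, the 8 genes covered a wide range. In siMock the order by FPKM was CTH (79.0), ALDH18A1 (34.2), PYCR1 (22.6), GOT1 (12.1), GPT2 (3.19), GLUL (2.96), CBS (0.396) and ASNS (0.173). Only GPT2 and GLUL overlapped as neighbours in that order. In siFUBP1 it was PYCR1 (71.5), CTH (63.6), ALDH18A1 (59.4), GOT1 (24.4), GPT2 (14.9), CBS (3.47), ASNS (3.46) and GLUL (1.90). The samples of PYCR1 and CTH, of CTH and ALDH18A1, and of CBS and ASNS overlapped there. GLUL thus stood above CBS and ASNS in siMock and below both in siFUBP1. The levels of CBS and ASNS are uncertain, however, and so is their place in the order. Of their 100-base windows, 92.4% for CBS also occur in CBSL and 79.4% for ASNS in AC079781.5. The FPKM divide by the merged exons of a gene. Per kilobase of the longest coding transcript, PYCR1 stood above ALDH18A1 and GLUL above GPT2 in siMock, and the siFUBP1 order was the same. Among the 12662 protein-coding genes tested, 2.65% lay below ASNS in siMock and 35.9% in siFUBP1, while 96.7% and 95.7% lay below CTH.

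**Figure D4:**
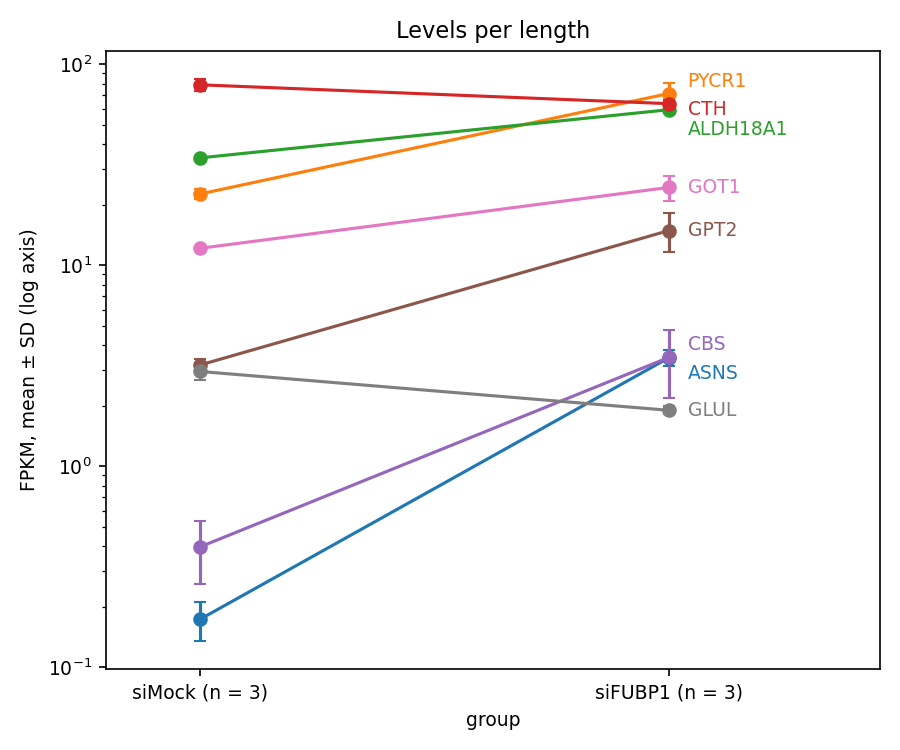
Mean FPKM ± SD (n = 3) of the 8 enzymes in siMock and siFUBP1 on a log axis, with a line joining the group means of each gene. The lines of CTH, ALDH18A1 and PYCR1 meet between 59.4 and 71.5 FPKM in siFUBP1, and the ASNS and CBS lines cross that of GLUL. The ASNS and CBS levels are uncertain, because AC079781.5 and CBSL share most of their sequence.

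The siFUBP1 samples were not alike for the higher genes. Of the 6 genes that were higher in siFUBP1, 5 had their highest level in replicate 2, and ALDH18A1 had its highest in replicate 3. GPT2, for example, was at 89.2, 118 and 77.8 CPM in replicates 1, 2 and 3, and PYCR1 at 208, 233 and 181 CPM. Risen genes outside the 8, such as ATF4, MYC and PSAT1, were also highest in replicate 2. Others were not, such as ASNSD1 (highest in replicate 3) and P4HA3 (replicate 1). The share over all genes was not counted, so the pattern cannot be called particular to these enzymes. FUBP1 itself was at 44.3, 43.4 and 53.0 CPM in the same samples. The part of the FUBP1 level in the spread between replicates was not tested.

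The other genes of the pathways were taken from 4 lists written by role, without the 8 enzymes, and were tested. Of 77 genes, 59 were tested, of which 18 rose and 19 fell at an adjusted p under 0.05, and 5 and 7 of them by more than the fold threshold. Together 62.7% of those tested passed the adjusted p, close to the 60.2% of all genes, and 20.3% were called, near the 17.3% of all genes. Their median log2 fold change was -0.10.

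In the list for asparagine, aspartate and alanine, 2 of 11 tested genes rose and 6 fell, with a median log2 fold change of -0.29. The larger changes were falls: the asparaginases ASPG, from 98.9 to 16.7 CPM (log2 fold change -2.57, adjusted p = 4.70e-17 by edgeR), and ASRGL1, from 9.39 to 2.96 CPM (-1.67, adjusted p = 7.04e-08 by edgeR), which break asparagine down, and GPT. ASPG had 1809, 1675 and 1362 reads in siMock and 302, 272 and 289 in siFUBP1. The asparagine synthetase domain gene ASNSD1 rose from 20.2 to 35.2 CPM (0.80, adjusted p = 1.07e-07 by edgeR).

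In the list for proline and ornithine, 5 of 10 tested genes rose and 2 fell (median 0.27). PEPD, a peptidase that frees proline from dipeptides, fell from 92.0 to 37.2 CPM (log2 fold change -1.30, adjusted p = 1.27e-12 by edgeR). ODC1, the ornithine decarboxylase of polyamine synthesis, fell from 373 to 174 CPM (-1.10, adjusted p = 3.15e-12 by edgeR). P4HA3, a prolyl hydroxylase subunit, rose from 23.7 to 50.4 CPM (1.09, adjusted p = 1.69e-10 by edgeR). A pair of further genes with few reads was chosen after their values were seen. The arginase ARG2, which makes ornithine, had 20, 8 and 18 reads in siMock and 115, 128 and 106 in siFUBP1 (log2 fold change 2.83). ARG2 passed the filter on low counts only through the siFUBP1 samples, so its value is a description without a p-value. It is among the genes of this list counted above as risen. The proline oxidase PRODH had too few reads for a test, with 16, 8 and 8 in siMock and 0, 2 and 0 in siFUBP1.

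In the list for the methionine cycle, cysteine and glutathione, 7 of 22 tested genes rose and 7 fell (median -0.14). TST, a sulfurtransferase of cysteine breakdown products, fell from 52.8 to 4.52 CPM (log2 fold change -3.54, adjusted p = 1.29e-17 by edgeR). CHAC1, which degrades glutathione, rose from 6.12 to 53.6 CPM (3.13, adjusted p = 4.45e-13 by edgeR). AHCYL2, a relative of the enzyme that frees homocysteine, fell from 19.9 to 7.27 CPM (-1.45, adjusted p = 3.11e-10 by edgeR).

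In the list for glutamate and glutamine, 4 of 16 tested genes rose and 4 fell (median 0.04). PSAT1, the transaminase of serine synthesis, rose from 60.2 to 383 CPM (log2 fold change 2.67, adjusted p = 3.18e-16 by edgeR), and GFPT1, which uses glutamine to make glucosamine phosphate, from 132 to 298 CPM (1.17, adjusted p = 2.18e-12 by edgeR). ALDH5A1, the succinic semialdehyde dehydrogenase, fell from 32.2 to 21.1 CPM (-0.61, adjusted p = 2.11e-05 by edgeR).

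**Figure D5:**
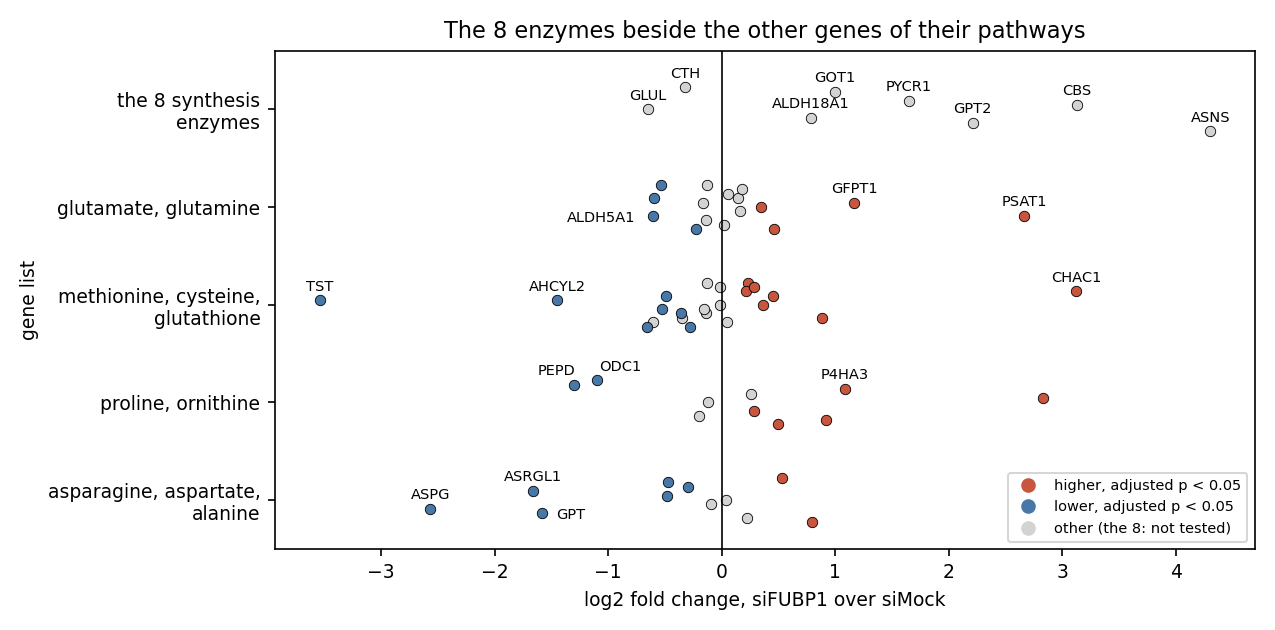
Log2 fold change of siFUBP1 over siMock for the 8 enzymes and for the tested genes of the 4 pathway lists, 1 point a gene, with red for genes that rose and blue for genes that fell at an adjusted p under 0.05 (edgeR). The named points run from TST at -3.54 to ASNS at 4.31, and in the pathway lists 18 points are red and 19 blue.

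ATF4 had 3063, 2734 and 2679 reads in siMock and 6486, 7209 and 6770 in siFUBP1, and rose from 173 ± 13.5 to 396 ± 17.3 CPM (SD, n = 3 each, log2 fold change 1.19, adjusted p = 1.65e-12 by edgeR). Of 12 genes listed as regulators, ATF4 included, 9 rose at an adjusted p under 0.05, and 1, ATF5, fell from 14.7 to 8.09 CPM. Over all genes tested, 30.1% rose and 30.1% fell. Past the fold threshold 5 of the 12 rose and 0 fell, beside 8.16% and 9.13% of all genes. The list was chosen with earlier results of these data known, so nothing is read from these counts. The largest changes were those of DDIT3 (3.09) and TRIB3 (1.95), both known targets of ATF4, and of MYC, which rose from 79.1 to 200.2 CPM (log2 fold change 1.34, adjusted p = 1.05e-12 by edgeR).

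The genes most like each called enzyme were sought among 10443 other protein-coding genes that averaged 100 counts or more. The measure was the root-mean-square difference of their log2 CPM from those of the enzyme over the 6 samples, each centred on its siMock mean. A gene as low in siMock as ASNS could enter this search only through its siFUBP1 counts. LEPR (0.47), ADM2 (0.57) and NUPR1 (0.61) were nearest to ASNS. The nearest was PELI1 for PYCR1 (0.07), CYR61 for GPT2 (0.08) and AREG for CBS (0.26). These are descriptions over 6 samples, of which 3 had the knockdown. With each gene centred on its siMock mean, a small value goes with a similar difference between the groups.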

How the data were processed

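RNA from 6 MG63 samples was sequenced after poly-A selection and grouped by the deposited titles; the study's methods say in general that experiments were repeated independently, but no source used here says whether these replicates are separate cultures, so p-values measure the spread between these samples, which may be technical. The authors deposited 1 table of 58735 genes. Its raw counts per gene are not normalized. The submitters' notes name HISAT2 2.0.5, StringTie 1.3.3b, featureCounts 1.5.0-p3 and DESeq2 1.16.1. All genes match GENCODE on GRCh38 in start, end and exon length. The FPKM values deposited by the authors equal the counts over exon length and a factor per sample. The authors' signal columns (group means), log2 fold changes and p-values come from their own comparison and were not used.

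Counts were compared with edgeR 4.0.16 (R 4.3.3): TMM scaling, expression filter by group, robust quasi-likelihood fit and test, Benjamini-Hochberg adjustment over 16116 genes. TMM factors were 0.959 to 1.05, and CPM use them. No samples were duplicates. Called means adjusted p under 0.05 and absolute log2 fold change over 1. The SE is that of the fitted log2 fold change, derived from its F statistic. The steps were tested on simulated data. The 8 enzymes and the lists were chosen with earlier results of these data known. Named genes are the 8 enzymes, FUBP1, their relatives, ATF4, the 3 largest changes per list among genes that passed averaging 100 counts or more, and the nearest genes; 1 relative is not reported here. Intervals and floors cover counting error only. Alternatives were RLE and total-count scaling, no filter, DESeq2 1.42.0, limma 3.58.1 on log2(FPKM + 1) and log2(FPKM + 0.1), a GC and length correction, CBS with CBSL, the replicate number as a block and each sample left out.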

Additional observations from a re-analysis of the deposited data

How the results depend on the processing

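The log2 fold changes of the 8 enzymes, which were chosen by these same counts, are given over 14 settings (15 for CBS) as a description. They lay between 1.92 and 4.44 for ASNS, 1.57 and 1.75 for PYCR1, 0.67 and 0.88 for ALDH18A1, -0.60 and -0.22 for CTH, 1.65 and 3.33 for CBS, 1.90 and 2.34 for GPT2, 0.89 and 1.10 for GOT1, and -0.75 and -0.45 for GLUL. Without the threshold on the fold change, 2 of the 8 were called lower, and 4844 genes were called higher and 4851 lower over the whole table, in place of 1315 and 1472. With limma on log2(FPKM + 1), whose pseudocount compresses low genes, the whole table gave 462 and 588. With the fold threshold added, an alternative chosen after seeing the data, 5 of the pathway list genes rose and 7 fell. Levels per kilobase of the longest coding transcript were added after seeing the data as well. The deviations of samples that share a replicate number had correlations of -0.00469, 0.0171 and 0.123. For samples of unlike number the correlations ran from -0.0918 to 0.0743. With 3 samples per group, these values cannot decide whether the samples were paired. With the replicate block, 1324 genes were called higher and 1469 lower, with the same 4 and 0 calls among the 8 enzymes. The low counts of ASNS and CBS in siMock limit the precision of their fold changes.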
